A study of Saccharomyces cerevisiae S288C with 71 samples.

Results

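The comparison described here set the coq2 mutant of Saccharomyces cerevisiae S288C, from which COQ2 is deleted, against the cox4 mutant, from which COX4 is deleted, 12 h into a batch culture. It rests on 4 of the 71 RNA-seq libraries of the series, 2 of each strain, and takes in every gene of the table that passed a low filter, 5766 of 5803 genes. Both strains grew with shaking at 30 C in yeast nitrogen base with ammonium and 2% glucose, and carried no other deletion. The other strains of the series used for comparison are the wild type (wt) and the double mutants in which coq2 or cox4 is joined with a deletion of RAS2, RTS1 or TCO89. The labels group these genes as suppressors of the starvation lethality of such respiration mutants. The single mutants of RAS2, RTS1 and TCO89 enter where YIR042C is followed through all 71 libraries, and in the shared estimate of spread. Samples were taken at 0 h (log phase), 12 h and 16 h, a span that covers the diauxic shift of wt. Libraries of one strain and time are technical replicates per the labels, so every p-value below measures only the spread between such libraries. They do not say whether a strain was 1 clone. The libraries came from whole cultures, in which a change in every cell and a change in some of the cells cannot be told apart.

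In yeast respiration, electrons from NADH and succinate enter a pool of coenzyme Q, pass through complex III to cytochrome c, and are handed to oxygen by cytochrome c oxidase. Coq2 attaches the polyprenyl tail of coenzyme Q, and Cox4 is a nuclear-encoded subunit of cytochrome c oxidase, so the mutants are blocked at different steps of the same chain. The enzymes that oxidize lactate in the mitochondrion pass their electrons to cytochrome c directly. At the diauxic shift glucose runs low, glucose-repressed genes come on, and a wild-type cell turns to respiring ethanol and acids.

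Transcripts of the deleted genes were low in the strain that lacks them, though not at the floor in every library. COQ2 (YNR041C) stood at 2.27 and 0.1 TPM in the coq2 libraries, where TPM is a length-corrected share of a library of a fixed sum and 0.1 is the floor of the table, and at 11 and 11.8 TPM in cox4. In wt it stood at 10.9 and 11 TPM, and in the coq2 libraries of 0 h and 16 h it was at 0.1 TPM in all 4, so the library with 2.27 TPM goes partly against its label. Among the double mutants at 12 h, coq2 rts1 library b held 2.95 TPM of COQ2 and library a 0.1 TPM. COX4 (YGL187C) stood at 1022 and 983 TPM in coq2 and at 2.59 and 0.446 TPM in cox4. RAS2, RTS1 and TCO89 were present in all 4 libraries. Transcripts that mark alpha cells were 206.3 to 381.6 TPM summed over 4 genes, and those of 7 a-cell genes 112 to 139 TPM. The coq2 libraries were less alike (r = 0.9905 across genes, 67 genes over 2-fold apart) than the cox4 libraries (r = 0.9959, 17 genes). The coq2 library with 2.27 TPM of COQ2, called library a here, was closer to the wt libraries (r = 0.9815 and 0.9788) than library b was (r = 0.9751 and 0.9727). Library a was also closer to the cox4 libraries (r = 0.9888 and 0.9898) than library b was (r = 0.985 and 0.9863). With cox4 library b it was thus nearly as alike as with coq2 library b. The part of library a in the results was not tested beyond leaving it out. The silent mating-type gene HMRA2 stood at 66.5 TPM in library b and at 0.1 TPM in the other 3.

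The profiles were close to each other, and the genes that did differ were nearly all lower in coq2. Of 5766 genes 35 passed the threshold (0.607%), an adjusted p from limma under 0.05 and at least 2-fold on the log2(TPM + 1) scale. Of these 3 were higher in coq2 (0.052%) and 32 lower (0.555%), and with the deleted genes set aside 2 were higher and 31 lower. In 2358 genes (40.9%) both coq2 libraries lay below both cox4 libraries, and in 627 (10.9%) above them. Without the 2-fold minimum, an adjusted p under 0.05 alone took in 38 higher genes (0.659%) and 467 lower ones (8.1%). The median gene lay at -0.11 on the log2 scale. Rescaling the libraries by median ratios moved the differences up by 0.168 in log2 TPM, and by less for low genes once 1 TPM was added. After that rescaling 21 of the 32 lower genes remained, 5 genes were higher, and the adjusted p alone took in 307 higher against 141 lower genes. The prevailing direction of the small differences thus turned with the scaling. Without coq2 library a, 68 genes were lower and 7 higher, and 28 of the 32 lower genes remained. Without coq2 library b 22 were lower, without cox4 library a 20, and without cox4 library b 34.

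**Figure D1:**
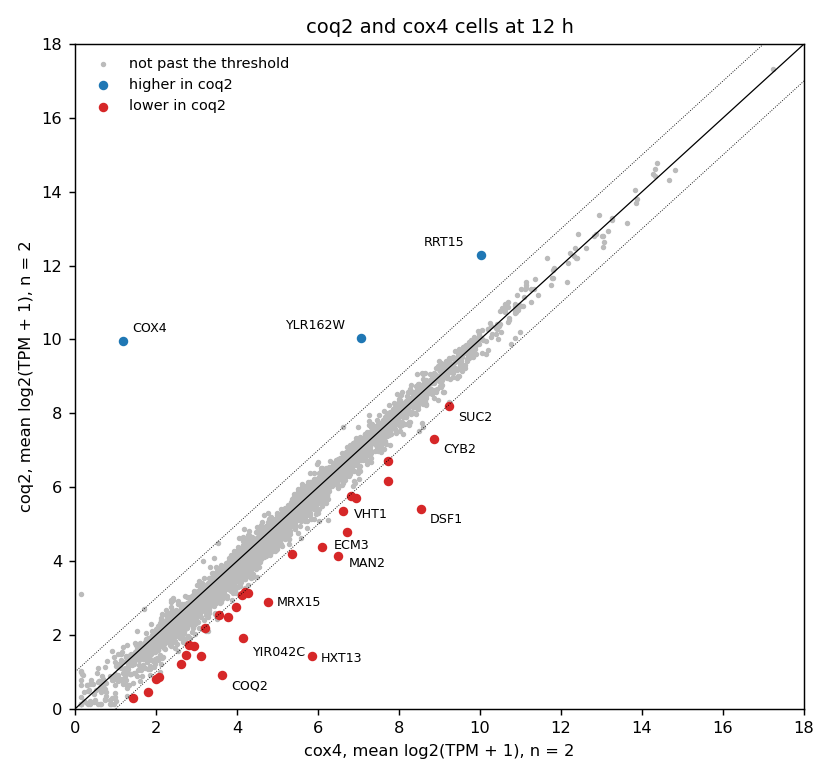
Mean log2(TPM + 1) of the 2 coq2 libraries (y) against that of the 2 cox4 libraries (x) at 12 h, 1 point per gene. The solid line marks equal levels and the dotted lines 2-fold, blue and red points are the 3 genes higher and the 32 lower in coq2, and most of the 5766 genes lie between the dotted lines.

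The genes furthest below cox4 were HXT13 and DSF1, which with HXT17 and MAN2 serve the uptake and oxidation of sugar alcohols and sit in pairs near the ends of chromosomes V and XIV. HXT13 (YEL069C, chromosome V, 21537 to 23231) and HXT17 (YNR072W, chromosome XIV, 772657 to 774351) belong to the hexose transporter family and carry mannitol and sorbitol. DSF1 (YEL070W, chromosome V, 19589 to 21097) and MAN2 (YNR073C, chromosome XIV, 774792 to 776300) encode mannitol dehydrogenases. HXT13 and DSF1 are convergent neighbours 439 bases apart, and so are HXT17 and MAN2, 440 bases apart. The genes of each family are near copies of each other, with 98.9% of aligned bases identical between DSF1 and MAN2 and 96% between HXT13 and HXT17, so that reads shared between the copies may have been divided in a way the sources used here do not give. The 300 bases before each start codon, read from the R64 genome on the gene's own strand, are shown for these 4 genes. These are the genes of polyol transport and dehydrogenation that passed, and the upstream sequences of one family are alike while those of the other are not. In DSF1 (chrV:19289-19588, + strand) and MAN2 (chrXIV:776301-776600, - strand) capitals mark the bases with no identical partner in their alignment, in which 88.5% of the columns matched.
DSF1: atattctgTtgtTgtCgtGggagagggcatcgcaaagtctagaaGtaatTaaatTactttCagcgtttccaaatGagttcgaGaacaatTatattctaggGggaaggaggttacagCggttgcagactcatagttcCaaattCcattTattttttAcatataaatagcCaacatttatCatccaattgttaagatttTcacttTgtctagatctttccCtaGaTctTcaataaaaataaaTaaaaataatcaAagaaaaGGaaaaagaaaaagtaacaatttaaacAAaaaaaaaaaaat
MAN2: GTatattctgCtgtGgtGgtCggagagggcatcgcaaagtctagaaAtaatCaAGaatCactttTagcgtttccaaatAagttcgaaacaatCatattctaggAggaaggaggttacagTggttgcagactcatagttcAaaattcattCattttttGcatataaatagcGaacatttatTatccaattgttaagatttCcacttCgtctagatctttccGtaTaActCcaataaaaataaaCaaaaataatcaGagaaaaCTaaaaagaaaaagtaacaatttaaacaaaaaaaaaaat
In HXT13 (chrV:23232-23531, - strand) and HXT17 (chrXIV:772357-772656, + strand) 54.8% of the aligned columns matched, and capitals mark CCAAT.
HXT13: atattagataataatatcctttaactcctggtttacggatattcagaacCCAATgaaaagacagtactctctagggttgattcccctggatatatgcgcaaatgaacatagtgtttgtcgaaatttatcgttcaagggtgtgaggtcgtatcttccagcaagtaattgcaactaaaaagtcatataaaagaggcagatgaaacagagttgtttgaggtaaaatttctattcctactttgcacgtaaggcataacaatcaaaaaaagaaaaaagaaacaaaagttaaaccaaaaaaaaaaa
HXT17: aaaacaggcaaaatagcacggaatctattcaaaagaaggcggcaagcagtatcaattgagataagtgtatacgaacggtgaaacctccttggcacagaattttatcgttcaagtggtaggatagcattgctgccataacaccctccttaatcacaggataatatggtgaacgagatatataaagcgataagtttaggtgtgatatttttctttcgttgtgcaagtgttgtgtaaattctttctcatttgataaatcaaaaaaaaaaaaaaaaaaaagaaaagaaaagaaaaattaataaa
The letters CCAAT, read on both strands, occur 1 time before HXT13, 1 time before DSF1, 2 times before MAN2 and 0 times before HXT17. They occur in 41.8% of 6001 such windows of the genome. The windows of all 4 genes hold 0 matches to the letters CCGGGG or to CTGGGG, and 0 to GCGGGG or to GTGGGG. These together stand here for the glucose repressor Mig1 and occur in 12% of windows. The 4 windows also hold 0 matches to CGGANNA, which stands for the glucose-responsive repressor Rgt1 and occurs in 26.9%. The same window before SUC2, the glucose-repressed invertase gene, likewise held 0 Mig1 matches. Control by Mig1 or Rgt1 was not tested.

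HXT13 had the largest difference of the 32 lower genes. It stood at 1.51 and 1.85 TPM in coq2 and at 60.7 and 52.9 TPM in cox4, with 0.918 and 0.882 TPM in wt. Both cox4 libraries thus lay far above both coq2 and both wt libraries, and coq2 was 21.6-fold lower than cox4 (log2 difference -4.43 ± 0.19, SE, limma adjusted p = 9.2e-22). HXT17, at lower levels, stood at 2.38 and 1.18 TPM in coq2 and at 8.51 and 6.95 TPM in cox4 (3.2-fold, limma adjusted p = 1.4e-07). With a pseudocount of 5 TPM its log2 difference was -0.91, under 2-fold.

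Both dehydrogenase genes were lower as well. DSF1 stood at 47.3 and 36.7 TPM in coq2 and at 392 and 350 TPM in cox4, 8.69-fold lower (limma adjusted p = 1.9e-12). MAN2 stood at 17.3 and 16.1 TPM against 92 and 86.8 TPM, 5.11-fold lower (adjusted p = 2.4e-13). In neither gene did the strains overlap. YNR071C (chromosome XIV, 770440 to 771468), annotated as a putative aldose 1-epimerase and next to HXT17, stood at 25.7 and 27.5 TPM in coq2 and at 105 and 104 TPM in cox4, 3.82-fold lower (adjusted p = 3.1e-16). Of the 7 tested genes of polyol transport and dehydrogenation 4 passed the threshold as lower, where 0.555% of all genes did. All 7 were below 0, with a median of -1.68 against -0.113 for all genes. The other members were the transporter gene HXT15 (log2 difference -0.56, adjusted p = 0.0094) and the sorbitol dehydrogenase genes SOR2 (-0.39) and SOR1 (-0.20).

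CYB2 and DLD1, genes of lactate oxidation, were lower in coq2 as well. CYB2 (YML054C, chromosome XIII, 165533 to 167308) encodes cytochrome b2, the L-lactate dehydrogenase of the intermembrane space. It stood at 170 and 146 TPM in coq2, 476 and 458 TPM in cox4, and 156 and 161 TPM in wt. The coq2 libraries were at the level of wt while both cox4 libraries were higher, and the strains differed by 2.94-fold (limma adjusted p = 3.3e-18). DLD1 (YDL174C), the D-lactate dehydrogenase gene, stood at 100 and 108 TPM in coq2 and at 205 and 219 TPM in cox4 (2.02-fold, adjusted p = 1.2e-10), without overlap. Its difference was under 2-fold on the log2(TPM + 5) scale, on the median-ratio scale, without coq2 library a and without cox4 library b. Of the 5 lactate genes these 2 passed, where 0.555% of all genes were lower. The median of the 5 was -0.44 against -0.113 for all genes. DLD2 and DLD3 lay at -0.335 and -0.358 without passing. The lactate carrier gene JEN1 lay at -0.44 (adjusted p = 0.021).

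Among 20 genes of glucose sensing and repression 2 passed the threshold, both lower in coq2, where 0.555% of all genes were lower. The median was -0.18 against -0.113 for all genes. SUC2 (YIL162W), the glucose-repressed gene for invertase, stood at 303 and 281 TPM in coq2, 602 and 595 TPM in cox4, and 124 and 109 TPM in wt. Both mutants were above wt in every library, and coq2 was 2.05-fold below cox4 (limma adjusted p = 6.1e-09), a call that was lost on the median-ratio scale and without coq2 library b. REG2 (YBR050C), a regulatory subunit of the protein phosphatase Glc7, stood at 49.9 and 53.5 TPM in coq2, 118 and 125 TPM in cox4, and 91.2 and 92.1 TPM in wt (2.33-fold between the mutants, adjusted p = 3.7e-08). Here wt lay between the mutants. The hexokinase gene HXK1 lay at -0.80 (adjusted p = 5.6e-10), short of 2-fold. None of the 18 tested hexose transporter genes passed, with a median of -0.41. The largest difference there was in the high-affinity transporter gene HXT7, at 1026 and 861 TPM in coq2 and 1792 and 1701 TPM in cox4 (log2 difference -0.89, adjusted p = 2.3e-05), and HXT7 is a near copy of HXT6, at 6866 and 5906 TPM against 8755 and 8388 TPM.

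**Figure D2:**
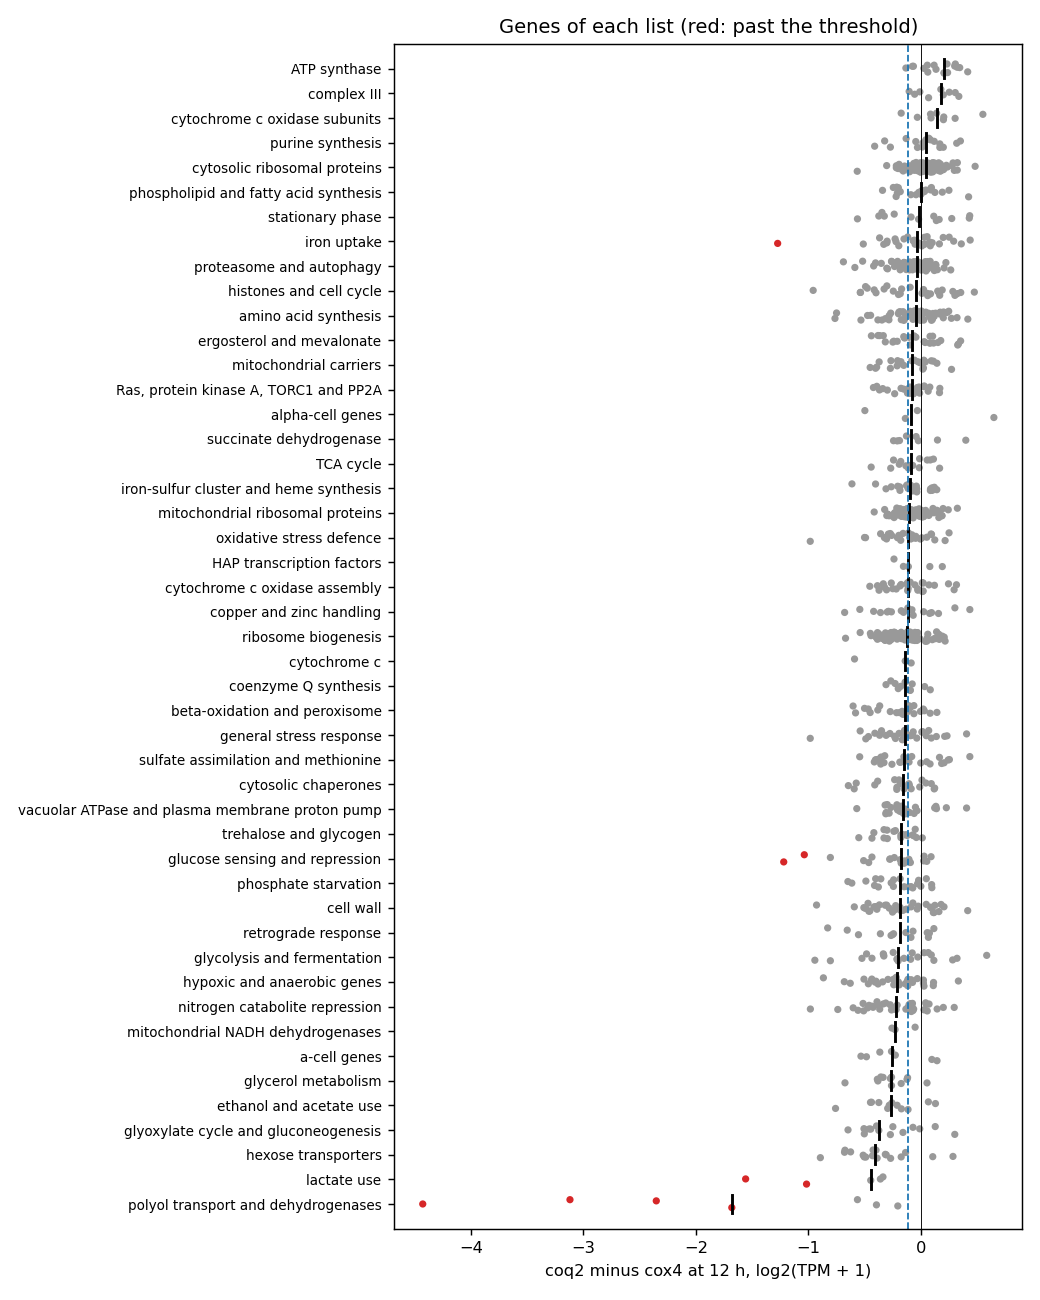
Log2(TPM + 1) difference, coq2 minus cox4 at 12 h, for each gene of 47 lists, with COQ2 and COX4 left out. Short black bars are list medians, the dashed line is the median of all genes tested (-0.113) and red points passed the threshold, which in these lists are 4 polyol genes, 2 lactate genes, 2 glucose genes and VHT1 of the iron list.

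Outside these groups the lower genes had varied roles. ECM3 (YOR092W), a membrane protein of unknown function, stood at 23.8 and 16.6 TPM in coq2 and at 65.8 and 70.3 TPM in cox4 (3.31-fold, limma adjusted p = 5.2e-15). ERR3 (YMR323W), an enolase-related gene, stood at 68.9 and 72 TPM against 225 and 197 TPM (2.96-fold, adjusted p = 6.7e-09), and its neighbour SNO4 (YMR322C), of the Hsp31 chaperone family, at 62 and 46 TPM against 116 and 107 TPM (2.06-fold). SNO4 lost its call under 5 of 14 alternatives, among them median-ratio scaling and leaving out coq2 library b or cox4 library a. Neither gene overlapped between strains, but ERR3 is 99.1% identical to ERR1 and ERR2 and SNO4 is a near copy of HSP32 and HSP33, so their counts are uncertain. VHT1 (YGR065C), the plasma membrane carrier of biotin, stood at 42.9 and 36.9 TPM in coq2 and at 109 and 87.1 TPM in cox4 (2.41-fold, adjusted p = 2.3e-10), with wt above both at 139 and 163 TPM. It was the only one of 30 genes listed under iron uptake to pass, and the median of that list was -0.03. YGR067C, a putative zinc finger protein, followed the same order, with 16.7 and 17.6 TPM in coq2, 44.7 and 35.3 TPM in cox4 and 100 and 105 TPM in wt. Without cox4 library a its difference was just under 2-fold.

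MRX15 (YNR040W, chromosome XIV, 699690 to 700460), a protein bound to mitochondrial ribosomes, lies 80 bases from the deleted COQ2. It stood at 7.49 and 5.42 TPM in coq2 and at 26.4 and 25.9 TPM in cox4 (3.68-fold, limma adjusted p = 6.2e-10). At 0 h the strains were closer, at 29.4 and 30.6 TPM against 31.7 and 35 TPM. The gene on the other side of COQ2, MVD1, lay at +0.36 (adjusted p = 0.058), and the neighbours of COX4, TPN1 and YGL188C-A, at -0.16 and -0.44 (adjusted p = 0.35 and 0.48).

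Apart from COX4, the genes higher in coq2 were RRT15 (YLR162W-A, chromosome XII, 490406 to 490594) and YLR162W (chromosome XII, 489573 to 489929), 476 bases apart and beside the ribosomal DNA. RRT15 stood at 5106 and 4893 TPM in coq2, 1114 and 973 TPM in cox4, and 530 and 601 TPM in wt (4.8-fold between the mutants, limma adjusted p = 0.0093). YLR162W stood at 803 and 1372 TPM in coq2 and at 126 and 138 TPM in cox4 (7.93-fold, adjusted p = 5.9e-06). No library overlapped between strains for either gene. Both share sequence with the 25S ribosomal RNA genes RDN25-1 and RDN25-2. A stretch of 137 bases, 72.5% of RRT15, is 98.5% identical, and a stretch of 177 bases, 49.6% of YLR162W, is 96.6% identical, in each case on the strand opposite to the ribosomal RNA. The libraries were depleted of ribosomal RNA with a kit, per the labels, and how reads that match both were assigned, or whether ribosomal RNA left over in a library moved with these values, was not tested. RRT15 lost its call under 4 of 14 alternatives, and YLR162W kept it under all 14.

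Genes of the respiratory chain differed little. Of 10 nuclear genes for cytochrome c oxidase subunits COX4 passed, and the largest of the rest was COX7 at +0.55 (adjusted p = 0.044). None of the 9 tested genes of complex III passed (median +0.18, summed level 11770 and 11470 TPM in coq2, 9805 and 9936 TPM in cox4), and none of 17 ATP synthase genes (median +0.21, 20410 and 21400 TPM against 18940 and 19100 TPM). ATP18, an ATP synthase subunit, had the largest difference of that list, at 2791 and 3247 TPM in coq2 and at 2168 and 2340 TPM in cox4 (+0.42, adjusted p = 0.0091). The summed levels of both lists were thus higher in each coq2 library than in either cox4 library, by less than the threshold. COQ2 alone passed among 12 genes of coenzyme Q synthesis, and 0 of 15 genes of the TCA cycle did (median -0.09). Of 15 genes of the glyoxylate cycle and gluconeogenesis 0 passed, 7 were lower at an adjusted p under 0.05 alone, and the median was -0.37. The isocitrate lyase gene ICL1 stood at 34.4 and 31.6 TPM in coq2, 57.3 and 47.4 TPM in cox4, and 324 and 361 TPM in wt, so both mutants were far below wt. In the retrograde response list, genes through which yeast nuclei answer to mitochondrial state, 0 of 14 passed, with PYC1, for pyruvate carboxylase, at 225 and 204 TPM against 383 and 378 TPM (-0.83, adjusted p = 4e-08). The cytosolic catalase gene CTT1 also stopped just short of 2-fold, at 180 and 183 TPM in coq2 and at 406 and 318 TPM in cox4 (-0.98, adjusted p = 8.1e-09).

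Set beside wild type at 12 h, the 31 lower genes other than COQ2 are described by the level of each mutant. These genes were chosen because cox4 exceeded coq2 in the same libraries, which favours cox4 above wt and coq2 below it, and the mutants share the wt libraries, so nothing is read from the counts against their backgrounds. In 14 genes cox4 was above wt past the threshold (background 0.832% of genes, 3.26% in either direction), HXT13, HXT17, DSF1, MAN2, YNR071C, CYB2, SUC2, ERR3, ECM3, RCK1, DGR1, NDJ1, COS12 and YGL262W. In 10 genes coq2 was below wt (background 4.37%, 4.67% in either direction), VHT1, YGR067C, MRX15, YIR042C, KNH1, YFL067W, YJR154W, YLL066C, PAU19 and YOL131W. SUC2 was above wt in both mutants, 2.5-fold in coq2 and 5.11-fold in cox4, and YGR067C below wt in both, 5.7-fold and 2.54-fold. In 7 genes neither mutant passed against wt, among them REG2, DLD1 and SNO4. On leaving out 1 library or another, SUC2, DGR1, NDJ1, COS12, YGL262W, DLD1 and SNO4 lost their call between the mutants. So did YGR067C, KNH1, YFL067W, YJR154W, YLL066C, PAU19 and YOL131W. HXT13 was 30.4-fold above wt in cox4 and 1.41-fold above it in coq2, and MAN2 5.08-fold above wt in cox4 and 1.01-fold below it in coq2.

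Few of the 31 genes lower at 12 h passed in log phase, and more of them did at 16 h. In log phase 20 of the 31 lay below 0, and at 16 h all 31 did. In log phase 10 genes were higher and 6 lower in coq2 (0.173% and 0.104% of genes, 0.277% in all), and of the 31 genes lower at 12 h 3 were also lower then, COS12, YIR042C and YIR043C. HXT13 ranged from 0.358 to 0.689 TPM in coq2 and from 0.379 to 0.631 TPM in cox4 at 0 h, and DSF1 from 0.334 to 0.603 TPM in the 4 libraries, so both genes were near silent in both strains. The count at 16 h was 4 higher and 17 lower genes (0.0694% and 0.295%, 0.364% in all), and 13 of the 31 were lower again, HXT13, DSF1, MAN2, YNR071C, CYB2, DLD1, REG2, ERR3, MRX15, YIR042C, YIR043C, YGL262W and YOL131W. Both genes higher at 12 h were higher again at 16 h, RRT15 at 10010 and 9681 TPM in coq2 and at 2022 and 1746 TPM in cox4.

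Tested directly, the coq2 minus cox4 difference at 12 h departed from that at 0 h in 46 genes, 3 upward and 43 downward (0.052% and 0.746%, 0.798% in all). Of the 43 genes 17 were among the 31 lower at 12 h, HXT13 with them (difference of the log2 differences -4.45, limma adjusted p = 3.8e-16). The tests against 0 h and against 16 h both hold the 12 h libraries that picked the 31 genes. An overlap with the 31 was thus favoured in advance, and nothing is read from it. Of the 46 genes 9 belong to the iron uptake list. The siderophore transport genes ARN1 and ARN2, the cell wall genes FIT2 and FIT3 and the mRNA decay factor gene TIS11 were higher in coq2 at 0 h (log2 difference 1.14, 1.54, 2.43, 2.82 and 1.83) and did not pass at 12 h (-0.07, -0.05, 0.44, 0.29 and 0.17). In each of these genes both wt libraries of 0 h lay above those of both mutants. FIT3 at 0 h stood at 994 and 1160 TPM in wt, 604 and 623 TPM in coq2 and 80.1 and 92.5 TPM in cox4. FIT3 at 12 h stood at 26380 and 24120 TPM in coq2 and 20560 and 20590 TPM in cox4. Without coq2 library a of 12 h the count was 92. Against 16 h, 3 genes departed (0.052%), all lower at 12 h, HXT13 (-1.35), ECM3 (-1.10) and VHT1 (-1.02). That count ran from 0 to 43 on leaving out 1 library: 43 without coq2 library a of 12 h, 7 without coq2 library b or cox4 library a of 16 h, 1 without coq2 library b or cox4 library a of 12 h or coq2 library a of 16 h, and 0 without cox4 library b of 16 h. HXT13 in cox4 stood at 17.7 and 16.7 TPM at 16 h, below its 12 h values, while in coq2 it stood at 1.02 and 1.29 TPM. VHT1 at 16 h stood at 26.9 and 21 TPM in coq2 and 30.6 and 26.4 TPM in cox4, where the strains overlapped.

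**Figure D3:**
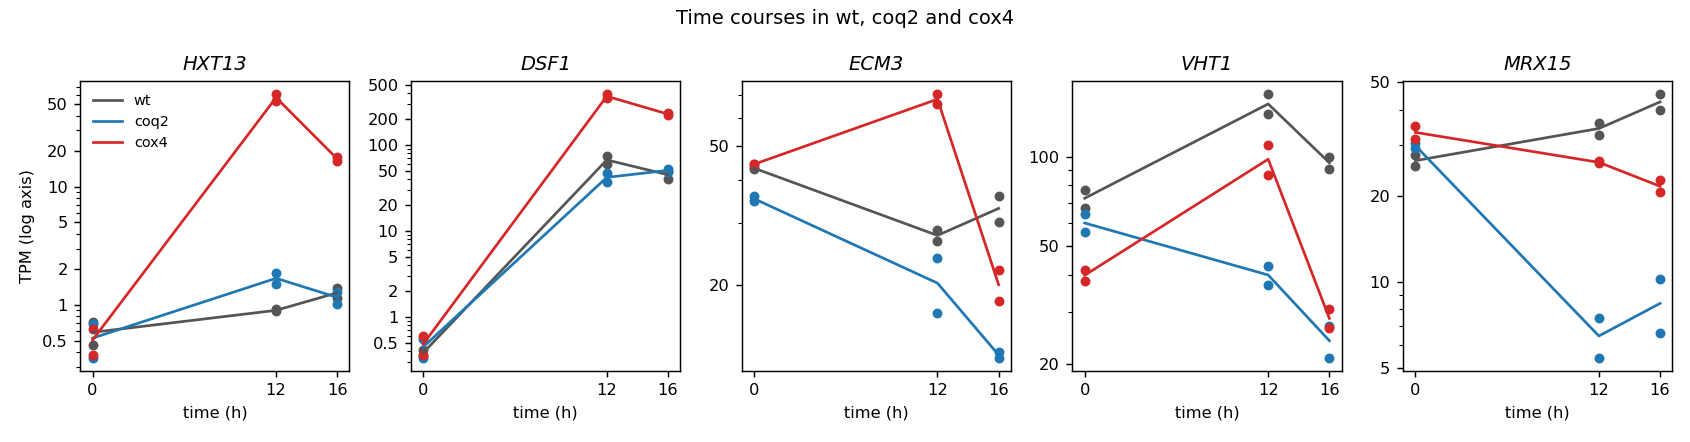
TPM on a log axis against time in wt, coq2 and cox4 for 5 genes, each library a point and lines through the means of 2. HXT13 and DSF1 are near silent at 0 h and reach their highest values in cox4 at 12 h (60.7 and 392 TPM), whereas MRX15 is lower in coq2 from 12 h on.

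The same pair of deletions can be compared at 12 h in strains that also lack RAS2, RTS1 or TCO89, with other libraries throughout. The number of genes that passed differed widely: 72 higher and 94 lower with ras2 (1.25% and 1.63%, 2.88% in all), 4 and 12 with rts1 (0.0694% and 0.208%, 0.277% in all), and 730 and 98 with tco89 (12.7% and 1.7%, 14.4% in all). With tco89 the median of all genes lay at 0.38 on the log2 scale, and the count was 468 in all after median-ratio scaling. The rts1 count rose from 16 to 69 without coq2 rts1 library a and fell to 10 without cox4 rts1 library b. Of the 31 genes 10 were also lower with ras2, 7 with rts1 and 9 with tco89, where 2 were higher. HXT13, DSF1 and MAN2 passed the threshold as lower in all 3 backgrounds. HXT13 stood at 0.696 and 0.735 TPM in coq2 ras2 against 69.5 and 64.7 TPM in cox4 ras2, at 2.68 and 2.91 TPM in coq2 rts1 against 33.5 and 34.8 TPM in cox4 rts1, and at 0.873 and 1 TPM in coq2 tco89 against 9.73 and 15 TPM in cox4 tco89. At 12 h no coq2 library in any background reached a cox4 library. This did not hold across backgrounds at 16 h, when HXT13 stood at 21.8 and 20.5 TPM in coq2 ras2 and 17.7 and 16.7 TPM in cox4. In cox4 ras2 it then stood at 518 and 501 TPM, and in coq2 rts1 and coq2 tco89 at 0.481 to 1.5 TPM. DSF1 at 12 h differed most with ras2, at 14.2 and 12 TPM against 1001 and 1051 TPM (73-fold, limma adjusted p = 7.8e-23). It differed least with rts1, at 128 and 142 TPM against 423 and 450 TPM (3.21-fold).

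Other genes passed in some backgrounds and not in others. SUC2, REG2, CYB2 and YGR067C were lower in coq2 with ras2 and with tco89 and did not pass with rts1, where SUC2 stood at 350 and 348 TPM in coq2 rts1 against 273 and 295 TPM in cox4 rts1 (log2 difference 0.30, adjusted p = 0.18) and CYB2 at 167 and 173 TPM against 219 and 190 TPM (-0.26, adjusted p = 0.12). Whether these differences themselves differed between backgrounds was not tested. ECM3 passed with rts1 (2.08-fold lower) and VHT1 in none of the 3. MRX15 lay at -0.41 with ras2, -0.71 with rts1 and +0.78 with tco89, without passing. YLR162W was higher in coq2 with rts1 (3.66-fold, adjusted p = 0.017), and RRT15 was lower with tco89 (log2 difference -1.51, adjusted p = 0.02), where 1 cox4 tco89 library held 6347 TPM and the other 637 TPM, and without the former the difference was 0.15 (adjusted p = 0.83).

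**Figure D4:**
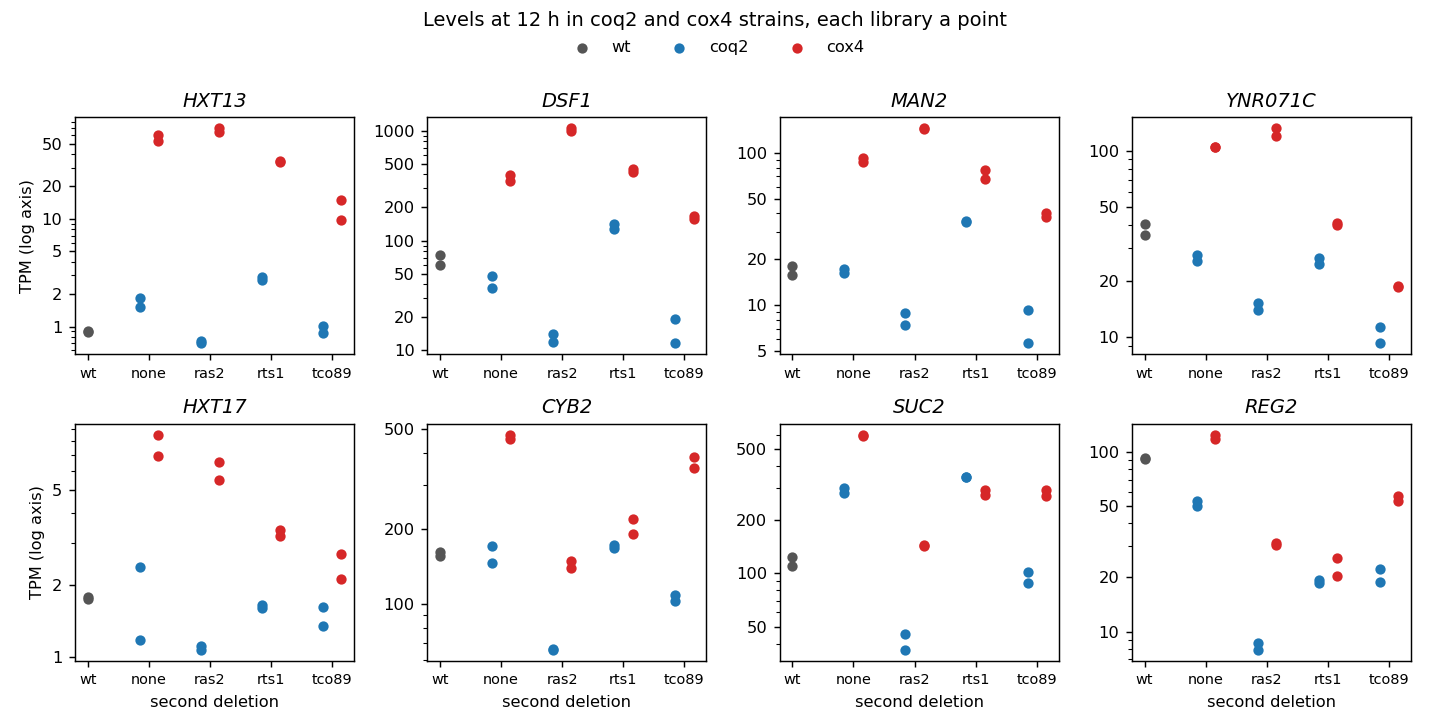
TPM at 12 h on a log axis for 8 genes lower in coq2, in wt and in coq2 and cox4 strains with no second deletion or with ras2, rts1 or tco89, each library a point. The cox4 points lie above the coq2 points in all 4 pairs in every gene but SUC2, where they lie below with rts1. With rts1 the points of REG2 and CYB2 come close together.

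YIR042C (chromosome IX, 435273 to 435983), a gene of unknown function 3.9 kb from the chromosome end, was set apart by strain rather than by time. It stood at 2.42 and 3.13 TPM in coq2 and 15.9 and 17.7 TPM in cox4 at 12 h (4.74-fold lower, limma adjusted p = 5.9e-13), at 1.61 and 1.91 against 21.9 and 18.6 TPM at 0 h, and at 4.43 and 3.3 against 17.2 and 16 TPM at 16 h. Over all times the 6 coq2 libraries ranged from 1.61 to 4.43 TPM (median 2.77) and the other 65 libraries of the series from 4.8 to 28.1 TPM (median 13.6), without overlap. The 18 libraries of coq2 double mutants were among the higher ones, at 8.33 to 28.1 TPM, and the next lowest libraries of the series were those of tco89 at 12 h, at 4.8 and 5.44 TPM. Its neighbour YIR043C, a pseudogene 1059 bases away, stood at 0.293 to 0.73 TPM in the 6 coq2 libraries and at 0.1 to 6.16 TPM in the others, with overlap. The sequence of the strain at this chromosome end was not analysed here.

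**Figure D5:**
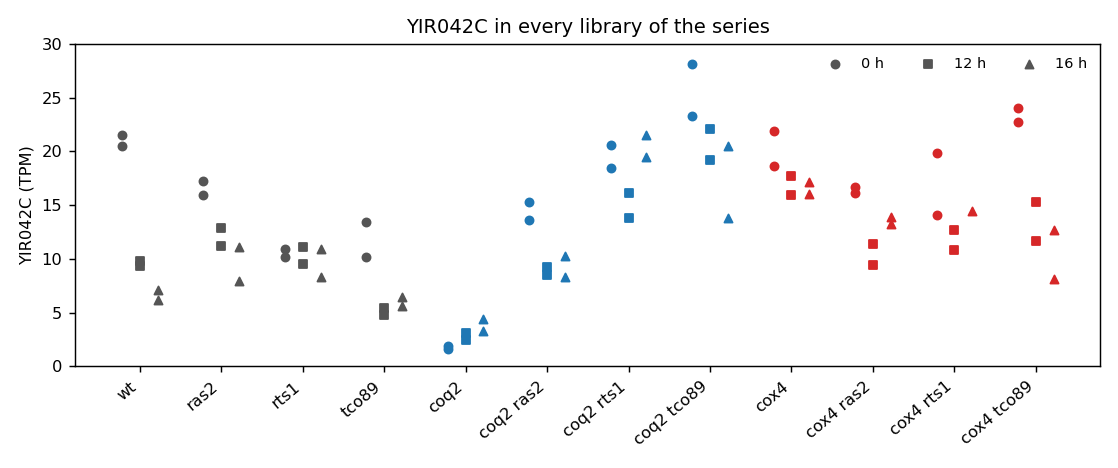
TPM of YIR042C in all 71 libraries by strain, with circles for 0 h, squares for 12 h and triangles for 16 h, blue for strains with the coq2 deletion and red for those with the cox4 deletion. The 6 coq2 points lie between 1.61 and 4.43 TPM, below every other point.

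Many of the lower genes lie near chromosome ends. Of the 32 lower genes 18 (56.2%) were within 30 kb of an end, against 353 of 5754 tested genes with a position (6.13%). The window was chosen after the positions had been seen, and without coq2 library a the share was 35.3%. The 18 genes include HXT13, DSF1, HXT17, MAN2, YNR071C, ERR3, SNO4, PAU19 and YIR042C. Genes there are often near copies of each other, as PAU19 and YLL066C are of several genes. Of the 32 lower genes 10 averaged below 10 TPM, where the pseudocount of 1 TPM holds fold changes down.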

How the data were processed

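RNA from whole cultures was sequenced from poly(A)-selected, stranded libraries depleted of ribosomal RNA, per the labels' protocols. The values used are TPM as the authors deposited them, with a floor of 0.1. Listed in the submitters' processing notes are sacCer3, bcl2fastq 2.20.0.422 and Salmon 0.9.1, with no role or setting given. TPM keeps no read depth, so depth is unknown here and no counting interval is given. Each of the 4 libraries had 5658 to 5699 genes at 1 TPM or more. Library letters a and b are names only, since the column names hold strain and time but no replicate number.

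Values were tested as log2(TPM + 1) with limma 3.58.1 in R 4.3.3, with 1 mean for each of 36 groups (71 libraries, 35 residual degrees of freedom), an intensity trend and Benjamini-Hochberg adjustment within each comparison. The pseudocount of 1 understates the change of low genes. Genes needed 1 TPM in at least 2 libraries, which removed 37. A gene passed with a change of 2-fold or more and an adjusted p below 0.05. Sequences and positions came from the R64 RefSeq genome, in which 5792 of 5803 identifiers matched. Near copies were searched with blastn 2.17.0.

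The genes named are the deleted genes and their neighbours, the 12 largest rises and falls past the threshold (standard name, at least 10 TPM in 1 strain, no overlap), up to 4 passing members of each gene list or else its largest member of at least 10 TPM, and the 3 largest of each direction in the comparisons of times and backgrounds. Other genes named were chosen after their values were seen. The comparison, its gene lists and tests were chosen with earlier results of these data known. Alternatives were other pseudocounts, filters, scalings and sets of libraries.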

Additional observations from a re-analysis of the deposited data

Results flagged for a closer look

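The results here were picked out because the coq2 minus cox4 difference at 12 h departed from the same difference at another time in a direct test, the interaction term of the limma fit with a size of 2-fold or more and an adjusted p below 0.05. Values are differences of log2 differences.

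Against 16 h the differences were -1.35 for HXT13, -1.10 for ECM3 and -1.02 for VHT1, so that coq2 lay further below cox4 at 12 h than at 16 h in each.

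Against 0 h 46 genes departed. Of the polyol list 4 genes did, with -4.45 for HXT13, -3.08 for DSF1, -2.66 for MAN2 and -1.66 for HXT17. Of the iron uptake list 9 did, with -2.52 for FIT3, -1.99 for FIT2, -1.84 for VHT1, -1.66 for TIS11, -1.59 for ARN2, -1.31 for SIT1, -1.23 for ENB1, -1.21 for ARN1 and -1.02 for COT1. In the polyol genes coq2 was lower at 12 h and the strains did not differ past the threshold at 0 h. In FIT3, FIT2, TIS11, ARN2, SIT1, ARN1 and ENB1 coq2 was higher than cox4 at 0 h and the difference did not pass at 12 h. Both mutants lay below wt at 0 h in these genes.

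Genes that were alone in their lists were REG2 of glucose sensing at -1.38, ADY2 of ethanol and acetate use at -1.35, HXT7 of the hexose transporters at -1.20, NCE103 of the hypoxic genes at -1.13, PDC6 of glycolysis and fermentation at -1.11, PYC1 of the retrograde response at -1.10 and HSP26 of the stress response at -1.09. Genes in none of the lists and lower in coq2 at 12 h were YNR071C at -2.27, RCK1 at -1.75, MRX15 at -1.73, YOL131W at -1.65, ECM3 at -1.41, ERR3 at -1.37, YFL067W at -1.35, YFR057W at -1.22, YGR067C at -1.15, YJR154W at -1.10 and SNO4 at -1.02. Those in no list that did not pass at 12 h were YDR246W-A at -1.37, MAL12 at -1.33, HES1 at -1.31, DDI3 at -1.29, PTH1 at -1.26, DFP4 (YHL044W) at -1.11, GTO3 at -1.07, RKM5 at -1.07, SHH4 at -1.05, WSC4 at -1.04, VMR1 at -1.03 and YEL067C at -1.01.

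The difference was more positive at 12 h than at 0 h in 3 genes, YLR162W by 2.48, YMR316C-A by 1.40 and the deleted COQ2 by 2.70. For COQ2 this says nothing of the coq2 strain, whose 0 h libraries were at the floor of 0.1 TPM, since COQ2 in cox4 stood at 44.5 and 46.4 TPM at 0 h and at 11 and 11.8 TPM at 12 h, and 1 coq2 library of 12 h held 2.27 TPM.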

How the results depend on the processing

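Of the 35 genes that passed, 13 kept their call under all 14 alternatives, HXT13, DSF1, MAN2, YNR071C, CYB2, ECM3, ERR3, MRX15, VHT1, REG2, YIR042C, COX4 and YLR162W. With a pseudocount of 5 TPM 15 genes were lower, with median-ratio scaling 21 were lower and 5 higher, in a fit of the 4 libraries alone 18 were lower, and by adjusted p alone 467 were lower and 38 higher. Leaving out 1 library gave 20 to 68 lower and 2 to 7 higher genes, and 35.3% to 50.0% of lower genes within 30 kb of a chromosome end. The count of differences against 16 h ran from 0 to 43, and that against 0 h from 34 to 92, with 25 at a pseudocount of 5 TPM. With ras2 the count ran from 150 to 170 and was 105 at a pseudocount of 5 TPM, with rts1 from 10 to 69 and 9, and with tco89 it was 494 at that pseudocount, 468 after median-ratio scaling and 447 after quantile normalization. Genes lower both without and with rts1 numbered 4 to 7, and 2 at a pseudocount of 5 TPM. The glucose list had 1 to 2 lower genes, and 1 after median-ratio scaling, and the lactate list 1 to 2, and 1 both at a pseudocount of 5 TPM and after median-ratio scaling. Genes with cox4 above wt numbered 13 to 15, and 8 at a pseudocount of 5 TPM. Genes with coq2 below wt numbered 7 to 10, with 5 at a pseudocount of 5 TPM, 6 after median-ratio scaling and 6 after quantile normalization. The RRT15 coq2 tco89 against cox4 tco89 at 12 h log2 difference ran from -3.17 without cox4 tco89 library a to 0.15 (limma adjusted p = 0.83) without library b. The causes were not tested. No paired analysis was possible because the columns carry no replicate numbers. Depth is unknown, and 2 technical libraries a strain limit the precision.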
